A study of Homo sapiens with 6 samples.

Results

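The chemokines and their receptors were examined in ATRX KO and ATRX NC glioma cells. Members were the genes with a chemokine, chemokine receptor or atypical chemokine receptor symbol (CCL, CXCL, CX3CL, XCL, CCR, CXCR, CX3CR, XCR or ACKR and a number) on a transcript cluster with exactly 1 gene symbol, a transcript cluster being the array's probe set for one gene. The rule found 61 members among 33616 genes: 20 CC ligands, 14 CXC ligands, 3 XC or CX3C ligands, 16 receptors, 5 atypical receptors and 3 pseudogenes. Each member had 1 transcript cluster, and all 61 entered the test, with no filter on low values. CCL14, CCL15, CCL3L1, CCL3L3, CCL4, CCL4L1 and CCL4L2 were represented only by clusters shared between genes and were left out, and CCL13 and CCR3 were not analysed here.

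ATRX KO cells carried CAS9 and sgRNAs against ATRX, a chromatin remodeler, and ATRX NC cells carried CAS9 and a non-targeting sgRNA, with 3 arrays in each group. By the design text of the series the cells were LN229R, a line that the study describes as TMZ-resistant LN229 glioblastoma cells, while the sample labels say LN229. All cells had been selected with puromycin for 7 days after CAS9 infection and were then infected with the sgRNA virus for 24 h, and no source used here says whether the knockout cells were a clone or a pool. It is not stated whether the 3 arrays of a group were separate cultures, so p-values cover only the scatter among these arrays, some or all of which may be technical.

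Chemokines are small secreted proteins that direct cell migration, and they are named by the spacing of their first cysteines (CC, CXC, CX3C and XC). CXC chemokines of the CXCR2 group draw neutrophils and act on endothelial cells, whereas CC chemokines such as CCL2 draw monocytes. In glioma, tumor cells are a known source of CCL2 and CXCL8, and CXCL12 with its receptors is known for its part in invasion. The conventional receptors signal through Gi proteins, while the atypical receptors take up or hold chemokines without G protein signaling.

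ATRX itself read 8.47, 8.67 and 8.75 in ATRX KO arrays, against 10.49, 10.22 and 10.14 in ATRX NC arrays, on the log2 intensity scale used for all levels here. The ATRX level in ATRX KO cells was thus 31.8% of that in ATRX NC cells (log2 fold change -1.65, standard error 0.16, limma adjusted p = 0.0005609). Over all genes tested 1947 rose and 1251 fell, and the median fold change was 0.07 on the log2 scale. The share of calls that were higher was 60.9%, and 47.7% to 49.2% after other scalings of the arrays. Arrays correlated at 0.990 to 0.992 within groups and at 0.980 to 0.981 between groups, and no array stood apart. The files hold no detection call, so the median gene, at a log2 level of 6.1, is used below only to mark which genes were dim. The background was not measured, and for a dim gene the change may be compressed by an unknown amount.

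Of the 61 chemokine and receptor genes, 6 were higher in ATRX KO cells (adjusted p under 0.05 by limma over all genes), where 5.79% of all genes tested were called higher. These were ACKR3, CXCL8, CCL2, CXCL1, CXCL16 and CCL5. Neither limma nor the methods' t-test called any member lower, where limma called 3.72% of all genes lower. Here and below the methods' t-test is counted at an adjusted p under 0.05 over all genes. The methods themselves state P under 0.05 and name no adjustment, so calls at that looser threshold are not counted. In either direction limma called 9.51% of all genes, against 6 of 61 members. Other scalings of the arrays called the same 6 members. At an unadjusted p under 0.05 there were 11 of the 61 members, where 24.3% of all genes tested were, and they comprised the 6 called with CXCL3 and CXCL1P on the higher side, and CCL16, CCL22 and XCL1 on the lower side. The median log2 fold change of the members, 0.06, lay next to that of all genes. The genes called were thus 5 ligands and 1 atypical receptor, while 55 members were not called. Since the arrays read RNA of whole cultures, more cells with a given RNA and more of that RNA per cell cannot be told apart.

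**Figure D1:**
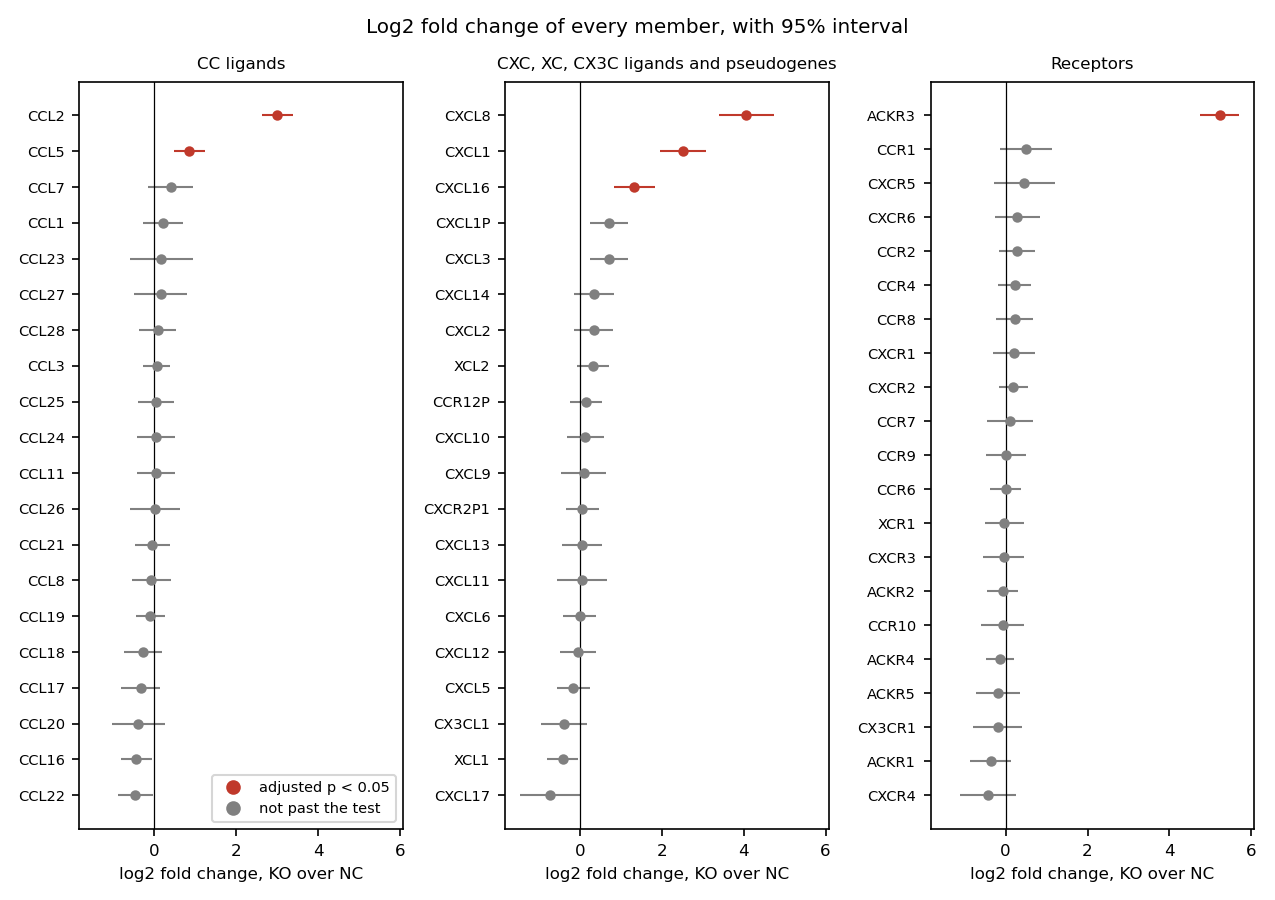
Log2 fold change of each of the 61 members, ATRX KO over ATRX NC, as points with 95% confidence intervals from limma. The 6 genes past the test are red, ACKR3, CXCL8, CCL2 and CXCL1 lie above 2, CXCL16 and CCL5 lie at 1.33 and 0.86, and the other 55 members lie between -0.72 and 0.72.

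Of the 14 CXC ligands, 3 rose (CXCL8, CXCL1 and CXCL16) and the other 11 did not pass the test, with a median of 0.11 over the 14. CXCL8, the neutrophil chemoattractant also called IL-8, read 11.22, 10.34 and 11.16 in ATRX KO arrays, against 6.38, 6.89 and 7.25 in ATRX NC arrays. Every ATRX KO array lay far above every ATRX NC array, and the second ATRX KO array was the lowest of its group. The difference was 4.06 on the log2 scale (standard error 0.30, 16.7-fold, adjusted p = 0.0001301, rank 148 of all genes by p), with a 95% interval of 3.38 to 4.74.

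CXCL1, a further ligand of CXCR2, read 8.27, 8.0 and 8.31 in ATRX KO arrays, against 5.43, 6.23 and 5.36 in ATRX NC arrays. The groups did not overlap, and the difference was 2.52 (standard error 0.25, 5.73-fold, adjusted p = 0.0005291). CXCL16, made as a membrane-bound protein that can be shed, read 6.28, 6.31 and 6.74 in ATRX KO arrays, against 5.31, 5.29 and 4.74 in ATRX NC arrays. Its difference was 1.33 (standard error 0.21, 2.51-fold, adjusted p = 0.006845), and only its ATRX KO mean lay above the median gene.

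CXCL8 and CXCL1 are among 6 members on chromosome 4 that were paired here with CXCR1 and CXCR2, and the other 4 were not called. CXCL3 was the nearest member outside the threshold, at 7.04, 6.95 and 6.90 in ATRX KO arrays against 5.85, 6.41 and 6.51 in ATRX NC arrays. The groups did not overlap (log2 fold change 0.71, 95% interval 0.25 to 1.16, adjusted p = 0.06429). CXCL3 passed where dim genes were left out, where the variance followed a trend or where only protein-coding genes were tested (adjusted p of 0.0192 to 0.0403). CXCL2 overlapped between groups, at 5.93, 5.66 and 6.08 in ATRX KO arrays against 5.17, 5.75 and 5.75 in ATRX NC arrays, with a difference of 0.33 (95% interval -0.15 to 0.81).

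CXCL5 and CXCL6, which share this receptor group, were at -0.16 (95% interval -0.57 to 0.24) and -0.00 (-0.40 to 0.40). The pseudogene CXCL1P, a copy of CXCL1, read 7.45, 7.59 and 7.57 in ATRX KO arrays against 6.48, 7.21 and 6.77 in ATRX NC arrays (log2 fold change 0.72, adjusted p = 0.06439). CXCL1, CXCL2, CXCL3 and CXCL1P are near-identical in sequence, so signal may be shared between their probes, and the split of the change among them is uncertain.

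**Figure D2:**
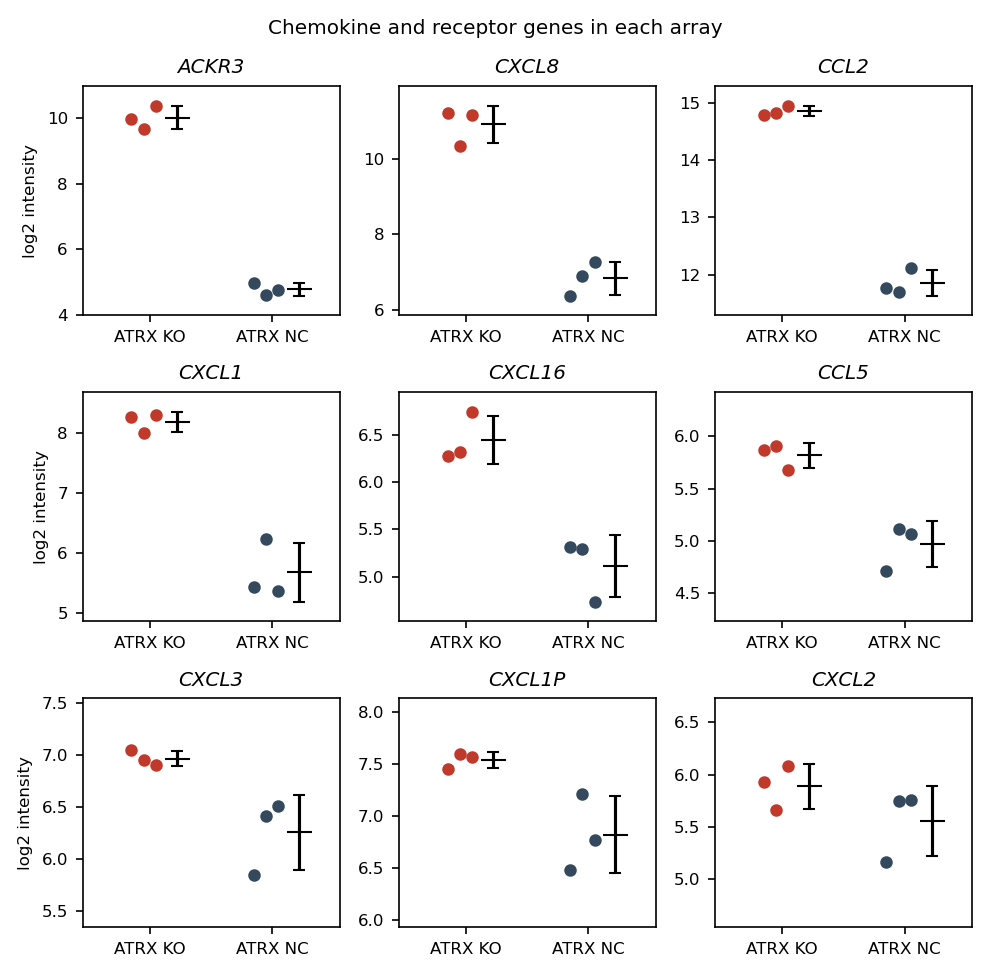
Log2 intensity of 9 genes in each array, ATRX KO in red and ATRX NC in blue, with the mean and SD of 3 arrays beside the points; each panel has its own axis, which does not start at 0. The groups lie apart in every panel except CXCL2, by the most for ACKR3 and CXCL8.

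The promoter sequences of this chromosome 4 group are shown because its members differed in response, from 4.06 for CXCL8 to -0.16 for CXCL5, and CXCL10 is added as the neighbor that interferon is known to induce. The sequences are the 250 bases before the RefSeq start on GRCh38.p14, written 5′ to 3′ on the gene's strand, and capitals mark matches to a kappa B site (the canonical or the RelA form, both strands searched, overlapping matches joined). In CXCL10 the first run of capitals is instead a match to the core of the interferon-stimulated response element. They lie at chr4:73740319-73740568 (CXCL8, plus strand), chr4:73869143-73869392 (CXCL1, plus), chr4:74038690-74038939 (CXCL3, minus), chr4:74099196-74099445 (CXCL2, minus), chr4:73998678-73998927 (CXCL5, minus) and chr4:76023498-76023747 (CXCL10, minus).
CXCL8: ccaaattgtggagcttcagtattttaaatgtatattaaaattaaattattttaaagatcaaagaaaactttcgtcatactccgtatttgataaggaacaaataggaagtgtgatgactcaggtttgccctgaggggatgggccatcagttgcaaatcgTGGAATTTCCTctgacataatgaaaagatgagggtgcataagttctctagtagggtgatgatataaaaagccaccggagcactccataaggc
CXCL1: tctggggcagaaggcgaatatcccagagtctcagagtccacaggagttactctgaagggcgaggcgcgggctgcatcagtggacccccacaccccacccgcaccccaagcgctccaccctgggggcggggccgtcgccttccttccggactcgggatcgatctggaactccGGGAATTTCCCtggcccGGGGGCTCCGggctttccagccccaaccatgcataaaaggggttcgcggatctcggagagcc
CXCL3: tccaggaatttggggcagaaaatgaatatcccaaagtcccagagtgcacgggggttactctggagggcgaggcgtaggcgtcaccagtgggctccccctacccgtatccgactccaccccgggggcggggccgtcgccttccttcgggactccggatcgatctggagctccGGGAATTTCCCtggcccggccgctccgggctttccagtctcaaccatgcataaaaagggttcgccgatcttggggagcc
CXCL2: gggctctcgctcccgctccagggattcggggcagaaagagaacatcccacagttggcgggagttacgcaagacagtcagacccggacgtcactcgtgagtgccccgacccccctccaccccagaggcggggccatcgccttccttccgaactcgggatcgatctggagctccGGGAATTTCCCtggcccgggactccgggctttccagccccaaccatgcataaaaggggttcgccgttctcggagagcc
CXCL5: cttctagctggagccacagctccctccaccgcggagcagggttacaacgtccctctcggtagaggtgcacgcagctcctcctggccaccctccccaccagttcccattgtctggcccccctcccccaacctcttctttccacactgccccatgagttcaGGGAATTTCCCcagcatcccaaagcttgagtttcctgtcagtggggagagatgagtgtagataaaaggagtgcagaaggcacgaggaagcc
CXCL10: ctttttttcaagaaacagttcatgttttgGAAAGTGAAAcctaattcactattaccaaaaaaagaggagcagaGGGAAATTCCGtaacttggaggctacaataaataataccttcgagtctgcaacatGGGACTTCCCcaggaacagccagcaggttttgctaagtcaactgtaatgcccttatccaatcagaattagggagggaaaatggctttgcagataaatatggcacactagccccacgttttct

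A kappa B match was thus present in the promoters that belonged to called genes and in those that did not. In CXCL8 it began 92 bases before the start, in CXCL1 79 and 62 bases, in CXCL3 79, in CXCL2 78 and in CXCL5 91 bases before it. The run GGGAATTTCCC, picked after the sequences were seen, was in the windows of CXCL1, CXCL2, CXCL3, CXCL5 and CXCL6 and in 27 of all 35116 promoter windows of that length (0.08%). CXCL5 and CXCL6 carried it with differences of -0.16 and -0.00, while CXCL8, with the largest ligand difference, did not carry that run. CXCL8 also held 1 match to TGANTCA, the AP-1 motif, 137 bases before the start, which 6.57% of all windows hold.

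Over the 42 members with a window in the table, a kappa B match of either form was found in 12, which is 28.6% of them against 15.1% of all windows. The 12 were ACKR5, CCL1, CCL20, CCL22, CXCL1, CXCL10, CXCL11, CXCL2, CXCL3, CXCL5, CXCL6 and CXCL8, of which 2 were called higher. The canonical form was in 11 members (9.96% of all windows) and the RelA form in 4 (8.22%), and CXCL1, CXCL10 and CXCL11 held both. The core of the interferon-stimulated response element was in 4 members, CCR6, CXCL10, CXCL9 and XCR1 (3.02% of windows), none of them called, TGANTCA in 8, and TATAAA in 13 (10.7% of windows). A match is a stretch of letters and not a bound site. CCL2, CCL5, CXCL16 and ACKR3 had no entry among the promoter windows.

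The remaining CXC ligands did not pass. CXCL9, CXCL10 and CXCL11, the interferon-induced ligands of CXCR3, were at 0.09 (95% interval -0.45 to 0.63), 0.13 (-0.32 to 0.59) and 0.05 (-0.55 to 0.65), all at levels below the median gene, and CXCL9 and CXCL11 changed sign under another scaling. CXCL10 read 4.84, 4.28 and 4.89 in ATRX KO arrays, against 4.68, 4.45 and 4.49 in ATRX NC arrays. The intervals of the CXCR3 ligands ended below those of CXCL8 and CXCL1. CXCL12, the ligand of CXCR4 and ACKR3, read 6.55, 6.30 and 6.43 in ATRX KO arrays, against 6.35, 6.23 and 6.84 in ATRX NC arrays (difference -0.05, 95% interval -0.49 to 0.40). CXCL17, a chemokine of mucosal tissue, was spread widely in ATRX KO arrays, at 6.32, 5.79 and 4.90, against 6.27, 6.29 and 6.62 in ATRX NC arrays (-0.72, adjusted p = 0.2204), and CXCL13 and CXCL14 were at 0.06 and 0.34.

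Of the 20 CC ligands, 2 rose (CCL2 and CCL5) and 18 did not pass, with a median of 0.04. CCL2, the main monocyte chemoattractant, was bright in both groups, at 14.79, 14.83 and 14.95 in ATRX KO arrays against 11.76, 11.70 and 12.11 in ATRX NC arrays. The ATRX KO arrays lay within a narrow band above every ATRX NC array, and the difference was 3.0 (standard error 0.16, 8.0-fold, 95% interval 2.62 to 3.38, adjusted p = 2.943e-05). CCL5, a ligand of CCR1 that attracts T cells, read 5.87, 5.91 and 5.68 in ATRX KO arrays, against 4.71, 5.12 and 5.06 in ATRX NC arrays. It differed by 0.86 (standard error 0.17, 1.81-fold, adjusted p = 0.01653) at levels below the median gene in both groups. The CCL5 call was lost without ATRX KO array 1 (adjusted p = 0.0639) or ATRX KO array 2 (adjusted p = 0.0583).

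Of the other CC ligands, 4 had a level above the median gene in either group. CCL7, a monocyte chemoattractant next to CCL2 on chromosome 17, read 6.49, 6.44 and 5.98 in ATRX KO arrays, against 5.50, 5.89 and 6.31 in ATRX NC arrays (0.41, 95% interval -0.15 to 0.96). CCL20, the ligand of CCR6, read 6.88, 6.54 and 7.72 in ATRX KO arrays, against 7.37, 7.52 and 7.41 in ATRX NC arrays (-0.39, -1.03 to 0.25). For both genes the groups overlapped. CCL19, a ligand of CCR7, was at -0.10 (-0.45 to 0.26) and CCL27, a skin chemokine and ligand of CCR10, at 0.16 (-0.49 to 0.81). CCL16 and CCL22 had every ATRX KO array below every ATRX NC array without passing the test, at -0.44 (adjusted p = 0.1427) and -0.47 (adjusted p = 0.1686). The 18 uncalled CC ligands ranged from -0.47 to 0.41.

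The 3 XC and CX3C ligands did not pass. XCL1 and XCL2, near-identical T cell chemokines, went in opposite directions at low levels, with -0.42 for XCL1 and 0.32 for XCL2 (adjusted p = 0.1657 and 0.2869), and signal may be shared between them. CX3CL1, the membrane-bound fractalkine of neurons and endothelium, was at -0.39 (95% interval -0.94 to 0.16). Over all 61 members, every ATRX KO array was above every ATRX NC array in 9 genes, where 19.0% of all genes were so arranged, and below in 3, where 11.2% were.

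Among the receptors of both kinds only ACKR3 passed the test. This atypical receptor, also called CXCR7, binds CXCL12 and CXCL11, recruits arrestin and takes CXCL12 up from the surroundings. It read 9.98, 9.67 and 10.37 in ATRX KO arrays, against 4.98, 4.60 and 4.76 in ATRX NC arrays. All ATRX NC arrays were below the median gene and all ATRX KO arrays far above it. The difference of 5.23 (standard error 0.21, 37.6-fold, 95% interval 4.75 to 5.71, adjusted p = 4.851e-06) was the largest of the 61 members and ranked 30 of all genes by p. CXCR4, the conventional receptor of CXCL12, read 4.83, 5.89 and 5.09 in ATRX KO arrays, against 5.37, 6.10 and 5.60 in ATRX NC arrays, and these levels overlapped below or near the median gene (-0.43, 95% interval -1.11 to 0.26). The intervals of CXCR4 and CXCL12 ended below that of ACKR3, and the difference between genes was not itself tested.

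The other atypical receptors, scavengers of inflammatory CC chemokines (ACKR2) or of CCL19 and CCL21 (ACKR4) among them, lay within -0.37 to -0.07 and did not pass. ACKR4 read 7.14, 7.01 and 7.22 in ATRX KO arrays, against 7.28, 7.15 and 7.36 in ATRX NC arrays (-0.14, 95% interval -0.48 to 0.20). ACKR2 read 6.86, 6.49 and 6.89 in ATRX KO arrays, against 6.88, 6.86 and 6.72 in ATRX NC arrays (-0.07, -0.45 to 0.31). For both genes the groups overlapped. ACKR1, the erythrocyte and venule receptor, was at -0.37 and ACKR5 at -0.18.

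Of the 16 conventional receptors, 0 were called in either direction, and the methods' t-test called 0 at an adjusted p under 0.05. By limma 0 had an unadjusted p under 0.05 (24.3% of all genes tested had), and their differences ranged from -0.43 to 0.51. Receptors for the ligands that rose were at 0.21 for CXCR1 (95% interval -0.32 to 0.73) and 0.19 for CXCR2 (-0.17 to 0.55), both receptors of CXCL8, at 0.29 for CXCR6 (-0.26 to 0.83), the receptor of CXCL16, at 0.28 for CCR2 (-0.16 to 0.72), the receptor of CCL2, and at 0.51 for CCR1 (-0.13 to 1.14), a receptor of CCL5. CCR2 read 7.12, 7.32 and 7.34 in ATRX KO arrays, against 6.88, 6.73 and 7.34 in ATRX NC arrays. Its groups overlapped, as did those of XCR1, the receptor of XCL1 and XCL2 (6.40, 6.01 and 6.36 in ATRX KO arrays, against 5.92, 6.59 and 6.35 in ATRX NC arrays, difference -0.03). CCR2 and XCR1 were the only conventional receptors with a mean above the median gene in either group.

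The genes were next set into 16 pairings of a receptor with its known ligands. In 4 pairings a ligand was called higher (2 of 6 ligands of CXCR1 and CXCR2, CXCL16 for CXCR6, CCL2 for CCR2, and CCL5 for CCR1), and in 1 a receptor was (ACKR3). There was no pairing in which both a ligand and a receptor were called. The other 11 pairings, those of CXCR3, CXCR5, CX3CR1, CCR3, CCR4, CCR6, CCR7, CCR8, CCR9, CCR10 and XCR1, held no called gene.

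Along the chromosomes the called ligands stood among genes of which most, but not all, were not called. Over all genes tested 5.79% were called higher and 3.72% lower. Of the 10 genes with a CXCL symbol from CXCL8 to CXCL13 on chromosome 4, CXCL8 and CXCL1 rose, with a median of 0.11 over the 10. Of 32 other protein-coding genes measured there and at the flanks, PF4V1, PF4 and PPBP included, 4 rose and 1 fell, with a median of 0.03. The largest of these differences was in EREG, an EGF receptor ligand that lies beyond CXCL2, at 2.54 (standard error 0.32, adjusted p = 0.00212). The other genes that rose were EPGN, another EGF receptor ligand, at 0.97 (adjusted p = 0.014), MTHFD2L, a mitochondrial folate enzyme, at 0.75 (adjusted p = 0.03229), and the cyclin gene CCNG2 at 0.64. The gene that fell was SHROOM3, an actin-binding protein gene, at -1.14. MTHFD2L, EPGN and EREG follow CXCL2 directly, in that order. EREG averaged 6.36 in ATRX KO cells and 3.82 in ATRX NC cells. PF4V1, PF4, PPBP, CXCL6 and CXCL5, which lie between CXCL8 and CXCL3, ranged from -0.36 to 0.28 and did not pass. The call of EREG held whichever array was left out, and 1 to 2 of the 32 genes, EREG included, were then higher in place of 4. By the methods' t-test at an adjusted p under 0.05, 1 of the 32 was higher and 0 were lower. The calls of EREG, EPGN, MTHFD2L and SHROOM3 were lost by that test. The call of EPGN was lost without ATRX KO array 1 or 3 or ATRX NC array 3, that of MTHFD2L without any array but ATRX NC array 3 and under all 3 other scalings, and that of CCNG2 whichever array was left out.

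On chromosome 17, CCL2 and CCL5 rose among 10 genes with a CCL symbol measured from CCL2 to CCL3, with a median of 0.12. CCL7, CCL11, CCL8 and CCL1, which follow CCL2 directly, were at 0.41, 0.04, -0.07 and 0.21 and did not pass. Of 28 other genes measured there, SLFN5, an interferon-inducible gene, rose by 1.78 (standard error 0.13, adjusted p = 0.0001518), and LIG3, a DNA ligase, fell by 0.70 (adjusted p = 0.03563), a call lost when any 1 array was left out. In both clusters CXCL or CCL genes that were called lay beside others that were not.

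**Figure D3:**
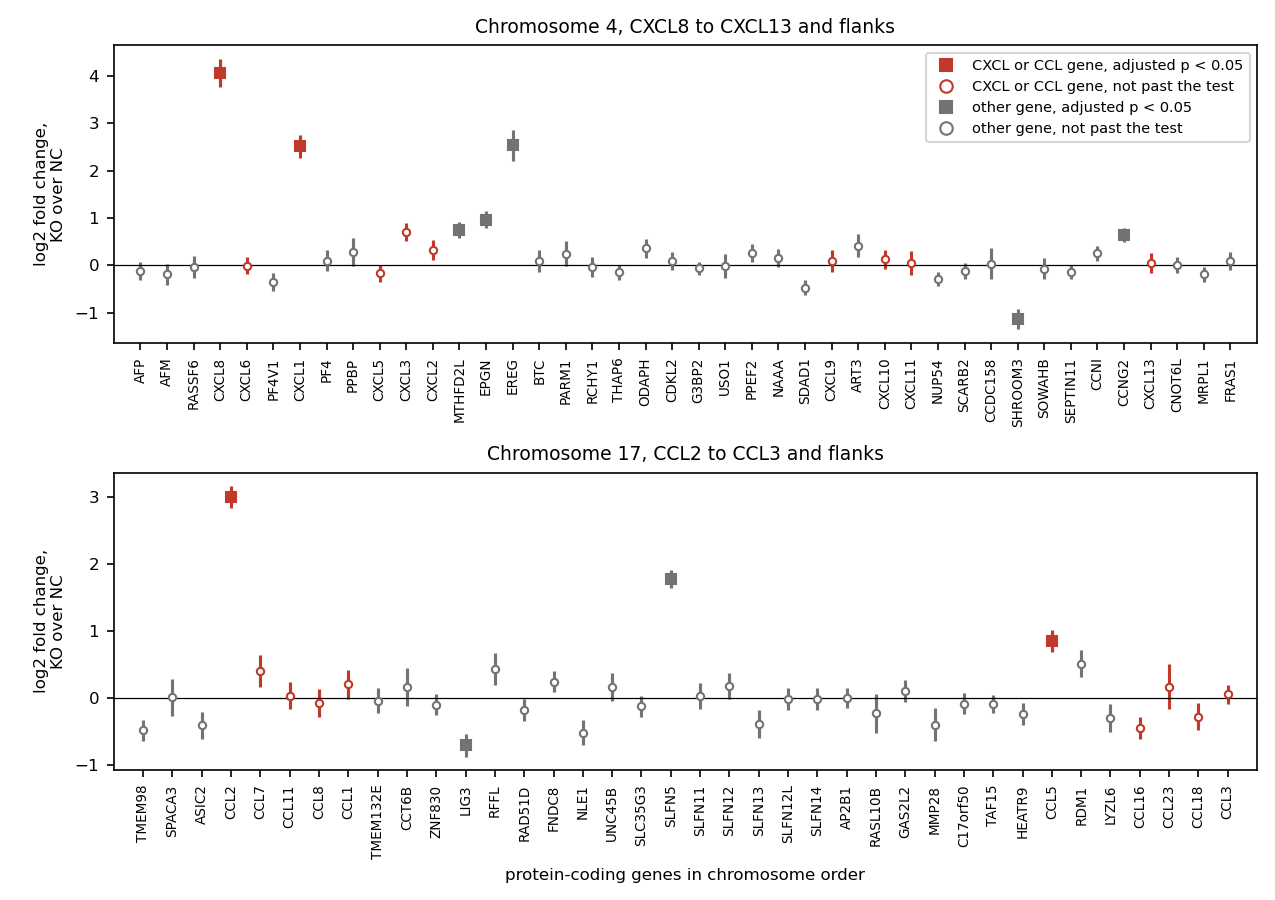
Log2 fold change, ATRX KO over ATRX NC, with standard error as bars, of protein-coding genes in chromosome order, genes with a CXCL or CCL symbol in red and other genes in grey, filled squares past the test. CXCL8 at 4.06, CXCL1 at 2.52 and EREG at 2.54 stand out on chromosome 4, and CCL2 at 3.0 and SLFN5 at 1.78 on chromosome 17.

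The cytokines and transcription factors that are known to induce chemokine genes were measured on the same arrays. Of 26 genes measured, 8 rose and 0 fell (5 and 0 by the methods' t-test), and the median was 0.33, beside 0.07 over all genes. Over all genes tested 5.79% were called higher and 3.72% lower, the shares to set beside this and each list below. Among genes above the median level, 9 of 21 in this list were higher, beside 3051 of 16808 genes. After other scalings the median of the list was 0.23 to 0.24, beside -0.02 to 0.001 over all genes. IL6 read 10.38, 10.27 and 9.86 in ATRX KO arrays, against 4.67, 5.40 and 5.36 in ATRX NC arrays (5.03, standard error 0.24, adjusted p = 1.377e-05). IL1B, a cytokine that signals to NF-kB, rose by 2.68 and NFKBIA, which encodes the inhibitor IkB alpha and is itself an NF-kB target, by 2.16, while the transcription factor IRF1 rose by 3.09 (adjusted p of at most 0.0002081 for these). IL1A, IL1R1, NFKB2 and JUN also rose, by 0.95 to 1.13, and the calls of IL1R1, NFKB2 and JUN were lost without ATRX KO array 1, those of IL1R1 and JUN also without ATRX KO array 3, and that of JUN without ATRX NC array 1 or 2. TNF, a further inducer, was dim in both groups, at 3.25, 3.42 and 3.10 in ATRX KO arrays against 3.59, 3.97 and 3.55 in ATRX NC arrays, and did not pass, though it was the 1 gene of the list lower at an unadjusted p under 0.05 (-0.45). The NF-kB subunit genes RELA, NFKB1, RELB and REL were at 0.41, 0.29, 0.39 and -0.06 and did not pass. Leaving out single arrays gave 5 to 8 genes higher. Of 6 genes for proteins that destabilize or stabilize such mRNAs, such as ZFP36, 0 were called, with a median of 0.18 (ZFP36L2 0.39, ZFP36L1 0.45, RC3H1 0.24 and HNRNPD 0.11). At an unadjusted limma p under 0.05 there were 2, ZFP36L2 and ZFP36L1. The methods' t-test called 0 at the stricter adjusted p under 0.05.

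Of 27 genes for signaling below the receptors, 5 rose and 4 fell (median 0.19). The largest differences were falls, in GNG7, a G protein gamma subunit, which read 7.40, 7.54 and 7.84 in ATRX KO arrays against 12.28, 12.16 and 11.88 in ATRX NC arrays (-4.51, standard error 0.18, adjusted p = 4.902e-06), and in PREX1, a Rac activator driven by G beta gamma (-3.12, standard error 0.26, adjusted p = 0.0002314). The gamma subunits did not go one way, since GNG11 and GNG5 rose by 1.48 and 0.93 while GNG2 and GNG12 fell by 0.88 and 0.62. Of the inhibitory alpha subunits, GNAI2 rose by 0.81, a call lost without ATRX KO array 1, ATRX KO array 3 or ATRX NC array 2, and GNAI1 and GNAI3 were at 0.28 and 0.39. The call of GNG12 was lost whichever array was left out, and in these fits 3 to 5 genes of the list were higher and 3 were lower.

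Of 10 genes that switch off receptors acting through G proteins, chemokine receptors or others, 2 rose and 1 fell (median 0.11). Their action on chemokine receptors was not measured. RGS2, a regulator that speeds GTP hydrolysis by G alpha subunits, rose by 2.86 (standard error 0.16, adjusted p = 2.943e-05), and ARRB1, which encodes beta-arrestin 1, by 1.26 (standard error 0.16, adjusted p = 0.002286). ARRB1 read 10.97, 10.94 and 11.34 in ATRX KO arrays, against 9.75, 9.90 and 9.81 in ATRX NC arrays. The receptor kinase gene GRK5 fell by 0.90 (adjusted p = 0.02798), a call lost in 5 of the 6 fits that left out an array, all but that without ATRX NC array 1, and RGS16 was at -0.36.

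Proteases that cut chemokines and heparan sulfate carriers that hold them formed a further list, of which 8 of 24 genes rose and 1 fell (median 0.34). FAP, a membrane peptidase, read 13.30, 13.05 and 12.84 in ATRX KO arrays, against 8.06, 8.19 and 7.35 in ATRX NC arrays (5.19, standard error 0.24, adjusted p = 1.29e-05). DPP4, the related peptidase best known for trimming chemokines, was dim and at -0.11. The syndecans SDC1 and SDC3 changed in opposite directions, by 1.77 and -2.12 (adjusted p = 0.001054 and 0.0002081), and EXT1, which polymerizes heparan sulfate, rose by 1.44 (adjusted p = 0.0008405). MMP1, MMP14, MMP9, GPC1 and MMP3 also rose, by 0.62 to 1.87, whereas ADAM10 and ADAM17, which shed CX3CL1 and CXCL16, were at -0.13 and 0.05. The call of MMP3 was lost whichever array was left out and that of GPC1 without ATRX KO array 2 or 3 or ATRX NC array 2 or 3, so that 6 to 7 genes of the list were higher, and 4 by the methods' t-test.

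Of 10 chemokine-like or accessory genes whose symbols fall outside the rule, 0 rose and 2 fell (0 and 1 by the methods' t-test), with a median of 0.13. CMTM7, of the chemokine-like MARVEL family, read 11.55, 11.45 and 11.81 in ATRX KO arrays, against 13.96, 14.19 and 13.88 in ATRX NC arrays (-2.41, standard error 0.17, adjusted p = 9.852e-05). CMTM8 was at -0.94, a call lost without ATRX KO array 1 or 2 or ATRX NC array 1 or 2 (highest adjusted p = 0.141). MIF, a cytokine that also binds CXCR2 and CXCR4, was bright and at -0.04, PITPNM3 and CMTM3, the 2 higher at an unadjusted p under 0.05, were at 0.66 and 0.54, and the platelet chemokine genes PF4 and PPBP were at 0.10 and 0.28.

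**Figure D4:**
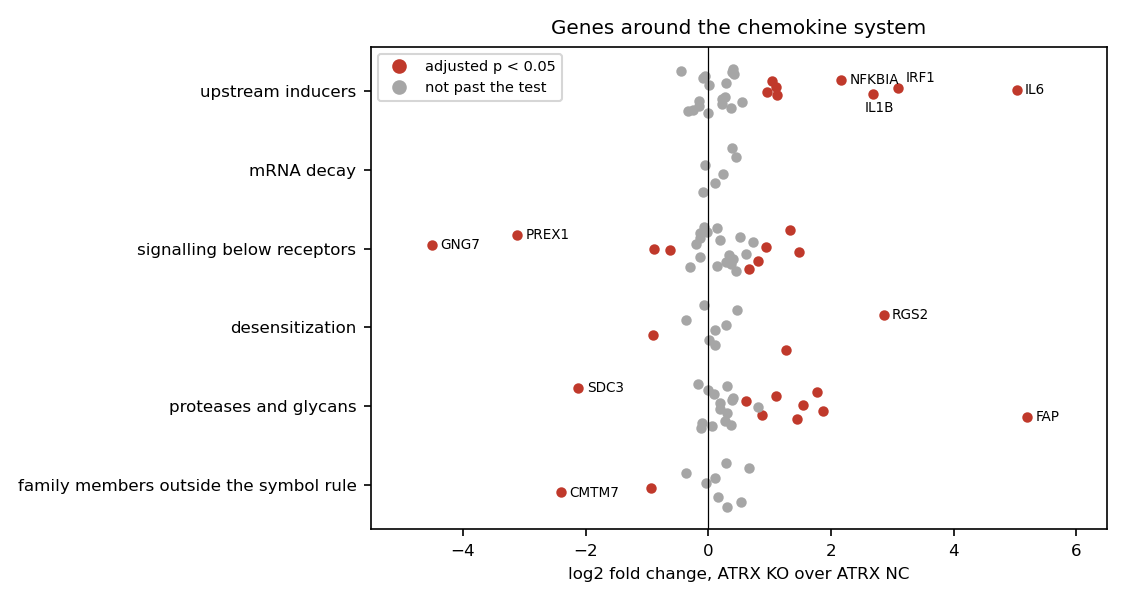
Log2 fold change, ATRX KO over ATRX NC, of each measured gene in 6 lists around the chemokine system, 1 point a gene, red where limma's adjusted p was under 0.05; points are spread vertically within a list only to separate them. IL6 at 5.03 and FAP at 5.19 lie farthest to the right, and GNG7 at -4.51 farthest to the left.

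The labelled cell type was checked against marker genes. Of 8 glioma line markers, VIM was bright in all arrays (0.03), SOX2 and CD44 were at 0.44 and 0.26, EGFR rose by 0.94, S100B and NES fell by 2.93 and 1.02, and GFAP and OLIG2 were below the median gene in both groups. Of 9 immune markers 1 rose, CD68, a lysosomal protein of macrophages, by 3.43. The leukocyte marker PTPRC read 5.82, 6.16 and 5.66 in ATRX KO arrays, against 5.75, 6.12 and 5.54 in ATRX NC arrays, near or below the median gene, and CD3E, CSF1R and CD14 were at 0.59, 0.57 and 0.16 and did not pass. FCGR3B, AIF1, ITGAM and TYROBP were at -0.20, -0.09, -0.02 and 0.01, and the median of the 9 was 0.08. The summed immune level ran from 10.44 to 10.79 (log2) in ATRX KO arrays and from 9.11 to 9.28 in ATRX NC arrays, and CD68 alone ran from 9.76 to 10.21 in ATRX KO arrays and from 6.30 to 6.88 in ATRX NC arrays.

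Of 5 endothelial markers PECAM1 rose by 1.52, a call lost without ATRX KO array 1 or 3, and the summed level ran from 7.99 to 8.27 in ATRX KO arrays and from 7.67 to 7.72 in ATRX NC arrays. Of 9 fibroblast and mural markers 5 rose (FAP, LUM, PDGFRB, DCN and TAGLN, by 1.84 to 5.19) and 0 fell, with a summed level of 15.36 to 15.83 in ATRX KO arrays and 12.32 to 12.38 in ATRX NC arrays. COL1A1, COL1A2, THY1 and ACTA2 of that list were at -0.31, 0.68, 0.48 and -0.09 and did not pass. No marker is at 0 on this scale. The fibroblast and CD68 levels moved with CXCL8, CCL2 and ACKR3 between the groups, and their part in the chemokine differences was not tested.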

How the data were processed

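RNA of 3 ATRX KO and 3 ATRX NC samples was measured on 1-color arrays. The authors deposited log2 intensities of 135748 probe sets, by their methods normalized between arrays with limma's quantile algorithm. The methods name Agilent arrays, but identifiers and kit belong to an Affymetrix whole-transcript design. The authors' software versions and their background correction are not stated in any source used here. Arrays have no read depth, so their number limits the precision. Medians over the genes tested ran from 6.03 to 6.17.

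Names came from the platform annotation (36176 probe sets with 1 symbol, 1119 with several, 98453 with none), with symbols updated through RefSeq GRCh38.p14 (25516 matched). The brightest probe set by its 6-array mean stood for a gene. All 33616 genes entered limma 3.58.1 (lmFit, eBayes; R 4.3.3), with Benjamini-Hochberg adjustment over all genes and a threshold of 0.05. The script was tested on simulated data. Robust fits used statmod 1.5.0.

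The members, the lists and the pairings of ligands with receptors were chosen with earlier results of these data known. Genes named are the members past the test, those above the median gene in either group, those nearest the threshold, receptors of called ligands, and up to 4 genes of each list with the smallest p. CCNG2, SHROOM3 and the further list genes were named after their values were seen. Deviations from the group mean of each gene correlated at -0.039 to -0.004 between same-numbered arrays, so the numbers showed no pairing. The 17 alternatives were other scalings, filters on dim genes, handling of probe sets, a replicate block, a trend with a robust fit, the methods' t-test, protein-coding genes alone and the loss of each array. The t-test was adjusted over all genes like limma, which left 1995 of its 7425 calls at an unadjusted p under 0.05. No set test was run.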

Additional observations from a re-analysis of the deposited data

How the results depend on the processing

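Under the 17 alternatives 4 to 8 members were higher and none was lower. ACKR3, CXCL8, CCL2 and CXCL1 passed in all of them. The replicate block gave the same 6 members, as did the other scalings, and over all genes 1255 higher and 804 lower, so the pairing changed no call among the members. CC ligands higher numbered 1 with only genes above the median level (that filter removed CCL5 and CXCL16) and 1 by the methods' t-test, and 1 to 2 when arrays were left out, where CCL5 failed without ATRX KO array 1 or 2. CCL5 and CXCL16 did not pass the methods' t-test once it was adjusted over all genes (adjusted p = 0.0594 and 0.0668). The methods name no such adjustment, so this is not a failure at their own threshold. CXCL1P passed without ATRX NC array 2 (adjusted p = 0.0289), and CXCL1P and CXCL3 with both filters on dim genes and the trend.

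Small differences changed sign. CXCL9 was at -0.0044 under median centring, and CXCL11 at -0.0038 under repeated quantile normalization, -0.0427 under median centring and -0.0038 under cyclic loess. With arrays left out CXCL9 ranged from -0.15 to 0.31, CXCL11 from -0.18 to 0.33, CCL19 from -0.17 to 0.0047, CCL27 from -0.19 to 0.40, CXCL12 from -0.17 to 0.13, XCR1 from -0.21 to 0.12 and ACKR2 from -0.14 to 0.0584. The cause was not tested.

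Over all genes, 60.9% of calls were higher in ATRX KO cells, against 48.7% (1494 higher, 1574 lower) with repeated quantile normalization, 47.7% (1461 and 1605) with median centring and 49.2% (1509 and 1555) with cyclic loess. The counts were 3051 and 1909 among genes above the median level, 3207 and 1934 with the trend, 1224 and 771 by the methods' t-test, and 1037 to 1354 and 739 to 836 with an array left out. No detection call was at hand, so signal over background was not measured.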
